A study of Mus musculus with 8 samples.

Results

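The proteasome subunit genes were taken as all genes of the count table whose symbol begins with Psma to Psmg followed by a digit, which gave 49 of 23107 genes. There were 19 genes of the core (Psma and Psmb), 7 of the regulatory ATPase class (Psmc), 14 of the Psmd class, called the lid here, and 9 of the Psme, Psmf and Psmg classes, called activators here. All 49 passed the filter on low counts. RNA that came down with an antibody against DCP1A, a co-activator of mRNA decapping found in cytoplasmic processing bodies, was set against input RNA from the same kind of tissue, mouse ovarian cortex at postnatal day 8, and the stated aim was to find the RNAs that DCP1A contacts in primary oocytes. The 4 RNA immunoprecipitation (RIP) libraries and the 4 input libraries carried no other treatment or genotype in their labels. Strain and the share of oocytes are not given, and the tissue holds somatic cells besides oocytes. RIP with a control antibody was not analysed here.

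The proteasome is the protease that removes most ubiquitin-tagged proteins. Its core particle is a barrel of stacked rings, with alpha subunits (Psma) forming the outer rings and the gate, and beta subunits (Psmb) forming the inner rings with the active sites. A regulatory particle binds the barrel's end: its ATPases (Psmc) unfold the substrate, and its non-ATPase subunits (Psmd) receive the substrate and cut off its ubiquitin. Other caps (Psme), an inhibitor-like binder (Psmf1) and assembly chaperones (Psmg) complete the set. Subunits are needed in fixed proportions, and in mammals the transcription factor NFE2L1 raises many of their genes together when proteasome activity is short.

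Libraries held 16325387 to 21269891 counts in RIP and 13098153 to 25757618 in input. Markers of oocytes (summed level 1308 to 1672 CPM in RIP and 1173 to 1896 CPM in input), granulosa cells (1331 to 2157 and 1103 to 2535 CPM) and stroma (4306 to 7982 and 4081 to 6623 CPM) were present in every library. CPM here are depth-scaled counts with trimmed mean of M-values (TMM) factors. Leukocyte markers summed to 41.3 to 56.4 CPM in RIP and 24.0 to 64.5 CPM in input, and the defining leukocyte marker Ptprc reached at most 1.42 CPM. Other markers of that list varied, from Cd3e at no more than 0.328 CPM to Csf1r at 8.18 to 27.3 CPM. Libraries numbered 3 and 4 differed from those numbered 1 and 2 among the inputs, so values within each set of numbers are given for some genes and classes. Where none is given for a gene, this does not mean that the sets agreed. In bulk tissue, fewer cells of a type and less RNA per cell cannot be told apart. The labels do not say that replicates came from separate animals, and the p-values therefore cover the spread of these 4 libraries a group, which may be technical.

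None of the 49 proteasome genes passed the test between DCP1A RIP and input. Their log2 fold changes of RIP over input lay between -1.14 and 0.82, with a median of -0.18 beside -0.02 for all 14667 genes tested. Of the 49, 12 lay above 0 and 37 (75.5%) below it, where 51.7% of all genes lay below. After Benjamini-Hochberg adjustment in edgeR (quasi-likelihood test), 0 members were called higher (background 0%) and 0 lower (background 0.0409%), and DESeq2 and limma voom also called 0. At an unadjusted p under 0.05, 0 members were higher (background 3.15%) and 5 lower, which is 10.2% (background 4.28%). With the replicate number as a block edgeR's unadjusted counts were 2 and 6, and no member passed. Among all 14667 genes that blocked fit gave 974 and 904, so the shares of 3.15% and 4.28% from the fit without a block are not its background. All RIP libraries lay below all input libraries for 1 member, 2.04% of them (background 2.52%), and above them for 0 (background 2.77%). The lowest adjusted p of any member was 0.622 in edgeR and 0.249 in DESeq2, and 0.0976 for Psmc6 with numbers 1 and 2 against 3 and 4 as a block in edgeR.

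The precision of each fold change was read from its approximate 95% interval. For 27 of the 49 genes that interval lay wholly within a 2-fold change in either direction. It reached past 2-fold lower for 20 genes and past 2-fold higher for 4. The median standard error of a member was 0.31 on the log2 scale, against 0.40 over all genes.

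**Figure D1:**
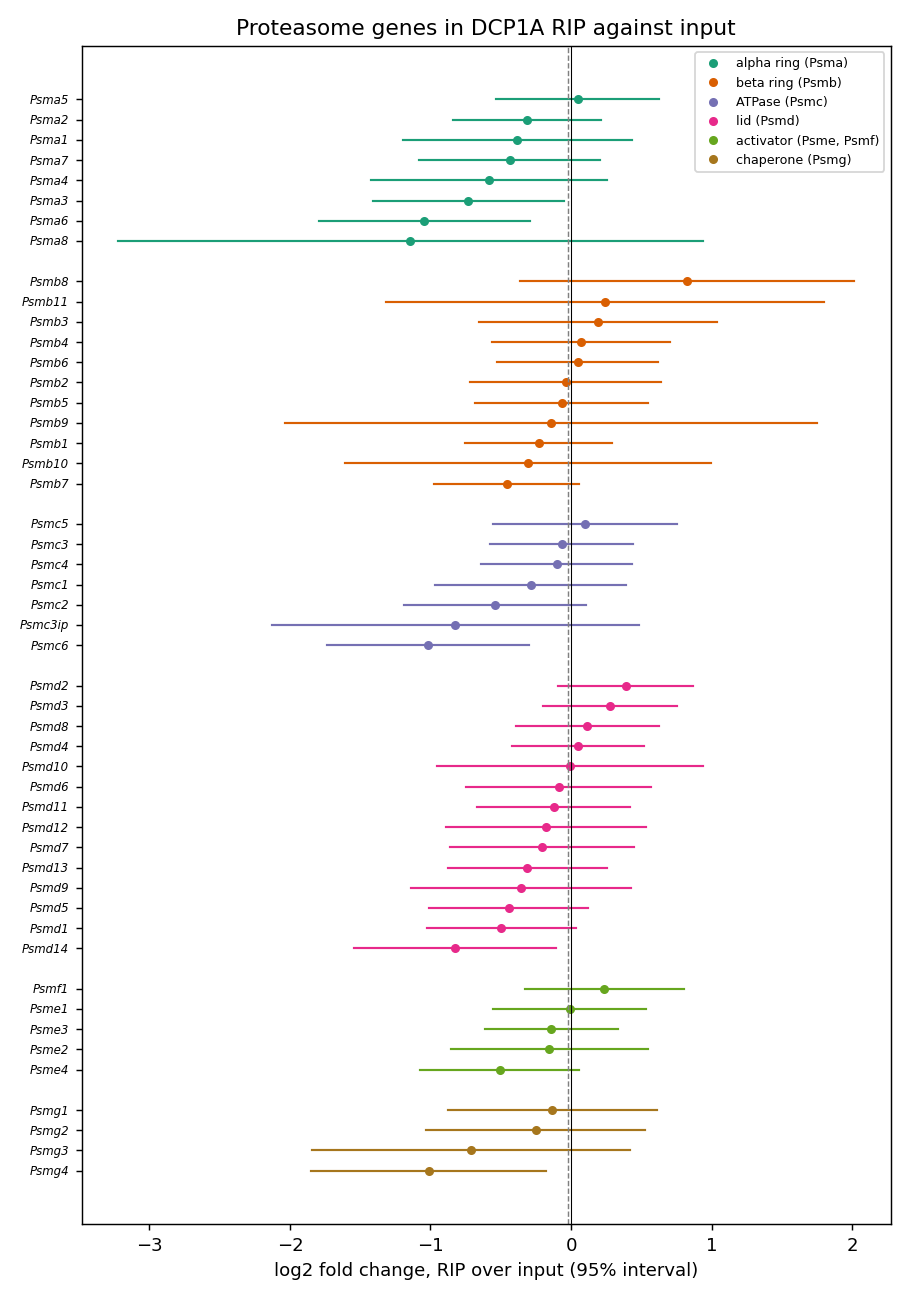
Log2 fold change of RIP over input for each of the 49 proteasome genes (points), with approximate 95% intervals (lines), grouped by class and sorted within class; the dashed line is the median of all genes tested (-0.02). Most points lie left of 0, the longest intervals belong to Psma8, Psmb9 and Psmb11, and none of the genes passed the adjusted threshold.

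Of the 8 alpha ring genes 7 had a fold change below 0, and none passed the test. Psma6 (GRCm38 chromosome 12, 55384222 to 55418459), an alpha ring subunit, was at 9.60, 21.2, 26.8 and 23.7 CPM in RIP libraries 1 to 4, against 42.1, 54.5, 42.7 and 28.5 CPM in input libraries 1 to 4. It was the member whose groups did not overlap, with input 4 the closest to RIP. Its log2 fold change was -1.04 ± 0.35 (SE, n = 4 each, edgeR adjusted p = 0.622), with -1.64 within libraries 1 and 2 and -0.50 within libraries 3 and 4.

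Psma3 (chromosome 12, 70969283 to 70995877), another alpha ring subunit, was at 37.2, 39.2, 39.9 and 53.6 CPM in RIP, against 58.7, 92.0, 96.6 and 34.6 CPM in input. Input 4 lay below all 4 RIP libraries while the other inputs lay above them, so the groups overlapped. The log2 fold change was -0.73 ± 0.32 (edgeR adjusted p = 0.645). Psma8, whose product takes the place of Psma7 in the proteasome of meiotic male germ cells (chromosome 18, 14706135 to 14762301), was scarce in every library. It had 0.739, 0.286, 2.81 and 3.19 CPM in RIP, against 2.94, 6.96, 2.49 and 3.21 CPM in input, resting on 6 to 88 counts a library. RIP 1 and RIP 2 were low and RIP 3 and RIP 4 lay in the range of the inputs (log2 -1.14 ± 0.98, edgeR adjusted p = 0.810), with -3.27 within libraries 1 and 2 and 0.07 within libraries 3 and 4.

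As a class, the 8 alpha ring genes had a median log2 fold change of -0.51. Psma6 and Psma3 were the 2 with an unadjusted p under 0.05, both lower (background 4.28%). The split of the core class into alpha and beta rings was not in the planned list of results. Their mean log2 level was 4.26, 4.53, 4.61 and 4.77 in RIP, against 4.99, 5.09, 5.37 and 4.81 in input. The groups did not overlap, although RIP 4 and input 4 differed by little. Without Psma8 the mean was 4.82, 5.22, 5.03 and 5.18 in RIP, against 5.45, 5.41, 5.91 and 5.23 in input, with RIP 2 just below input 4. The median was -0.23 without input 3, which had the highest alpha ring level, and -0.17 within libraries 1 and 2.

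The beta ring genes lay on both sides of 0. Of 11 genes, 5 lay above 0 and 6 below, with a median log2 fold change of -0.04, and 0 had an unadjusted p under 0.05. Using libraries 1 and 2 alone the median came to -0.21, using 3 and 4 alone to 0.34, and with the replicate block to 0.06. Mean log2 levels were 5.19, 4.88, 4.53 and 4.68 in RIP, against 5.23, 5.26, 4.15 and 4.18 in input, so input 1 and input 2 lay above every RIP library and input 3 and input 4 below. Whether the alpha and beta rings differed in their fold change was not tested. For the core class of 19 genes as a whole the median was -0.23, and -0.01 without input 2.

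**Figure D2:**
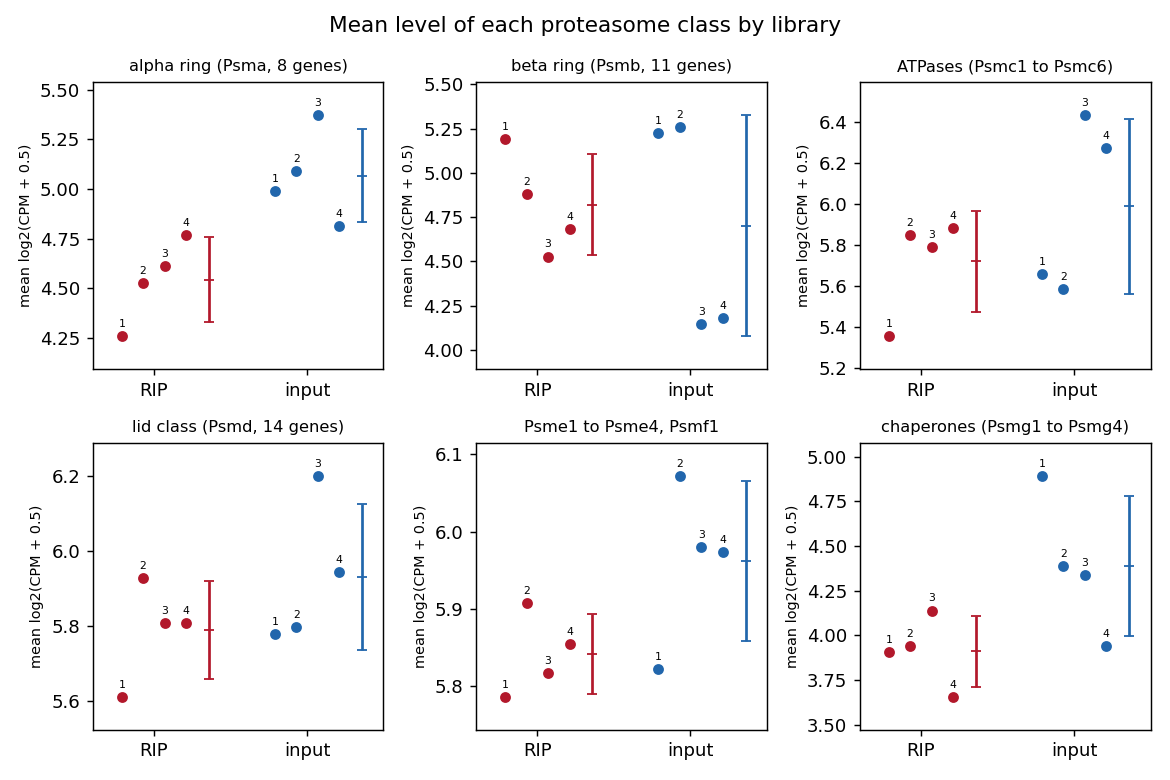
Mean log2(CPM + 0.5) over the genes of each class (y axis) in the 4 RIP libraries (left, red) and the 4 input libraries (right, blue), numbered by replicate; the bars are mean ± SD. The alpha ring panel is the panel in which all RIP points lie below all input points, and input 3 and input 4 stand apart from input 1 and input 2 in the beta ring and ATPase panels.

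Of the constitutive catalytic subunit genes, Psmb5 and Psmb6 had fold changes close to 0 and Psmb7 lay below it. Psmb5 (chromosome 14, 54614120 to 54617995), which cuts after hydrophobic residues, was at 45.7, 44.9, 32.5 and 38.7 CPM in RIP, against 57.3, 47.0, 35.5 and 29.6 CPM in input (log2 -0.06 ± 0.29, 95% interval -0.68 to 0.55). Psmb6 (chromosome 11, 70525324 to 70527858), the caspase-like subunit, was at 152, 90.6, 113 and 93.9 CPM in RIP, against 156, 101, 97.9 and 79.2 CPM in input (log2 0.05 ± 0.27, 95% interval -0.52 to 0.62). For both genes the ranges of RIP and input overlapped nearly throughout. Psmb7 (chromosome 2, 38588046 to 38643952), the trypsin-like subunit, was at 48.4, 63.3, 54.5 and 46.0 CPM in RIP, against 62.7, 86.4, 72.5 and 69.7 CPM in input. RIP 2 just exceeded input 1, and the other RIP libraries lay below all inputs (log2 -0.46 ± 0.24, edgeR adjusted p = 0.702).

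Interferon-induced catalytic subunits replace the constitutive ones in the immunoproteasome, which is best known from leukocytes and from tissue under inflammation. Their genes ranged widely among the input libraries. Psmb8 (chromosome 17, 34198195 to 34201454), the counterpart of Psmb5, was at 16.0, 22.5, 13.4 and 11.1 CPM in RIP, against 14.96, 14.7, 2.69 and 3.46 CPM in input. Input 3 and input 4 lay below every RIP library, while input 1 and input 2 lay inside the RIP range. The log2 fold change of 0.82 ± 0.56 was the highest of the 49 members (95% interval -0.36 to 2.01, edgeR adjusted p = 0.754), with 0.37 within libraries 1 and 2 and 1.99 within libraries 3 and 4.

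Psmb9 (chromosome 17, 34182030 to 34187330), the counterpart of Psmb6, was at 25.6, 5.90, 2.58 and 6.70 CPM in RIP, against 18.4, 23.7, 0.477 and 2.62 CPM in input. RIP 1, input 1 and input 2 stood above the rest. The log2 fold change was -0.14 ± 0.89 with all libraries and no block. It was -1.15 without RIP 1 and 1.58 within libraries 3 and 4. When all libraries were kept, blocking on replicate gave 0.59 and limma voom gave 0.55. The direction for Psmb9 thus rested on the fit as well as on the libraries used. Psmb10 (chromosome 8, 105935728 to 105938392), the counterpart of Psmb7, was at 17.5, 7.62, 5.20 and 5.32 CPM in RIP, against 13.6, 21.2, 2.73 and 6.63 CPM in input (log2 -0.31 ± 0.61, edgeR adjusted p = 0.930). Here again RIP 1, input 1 and input 2 were the high libraries.

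Together the interferon-induced genes made up 19.4%, 15.3%, 9.59% and 11.4% of the summed CPM of both catalytic sets in RIP, against 14.5%, 20.2%, 2.78% and 6.65% in input. These shares are not corrected for gene length and serve to compare libraries only. Summed leukocyte markers were 56.4, 52.6, 43.3 and 41.3 CPM in RIP and 34.3, 64.5, 28.6 and 24.0 CPM in input, and summed stroma markers were 7982, 5678, 4306 and 4781 CPM in RIP and 6130, 6623, 4081 and 4167 CPM in input. Both lists were lower in libraries 3 and 4 than in libraries 1 and 2 of each group. So were summed granulosa cell markers, at 2157, 1949, 1331 and 1423 CPM in RIP and 1983, 2535, 1103 and 1148 CPM in input. Genes of the leukocyte list did not all move alike. Among inputs, Cd74 was lower in input 3 and input 4 than in input 1 and input 2, and Cd68 was higher. The part of any of these lists in the levels of Psmb8, Psmb9 and Psmb10 was not tested. Psmb11 (chromosome 14, 54625310 to 54629556), the beta subunit of the thymus, was scarce at 2.96, 2.81, 3.80 and 7.94 CPM in RIP, against 2.27, 3.91, 3.24 and 5.39 CPM in input (log2 0.24 ± 0.73).

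**Figure D3:**
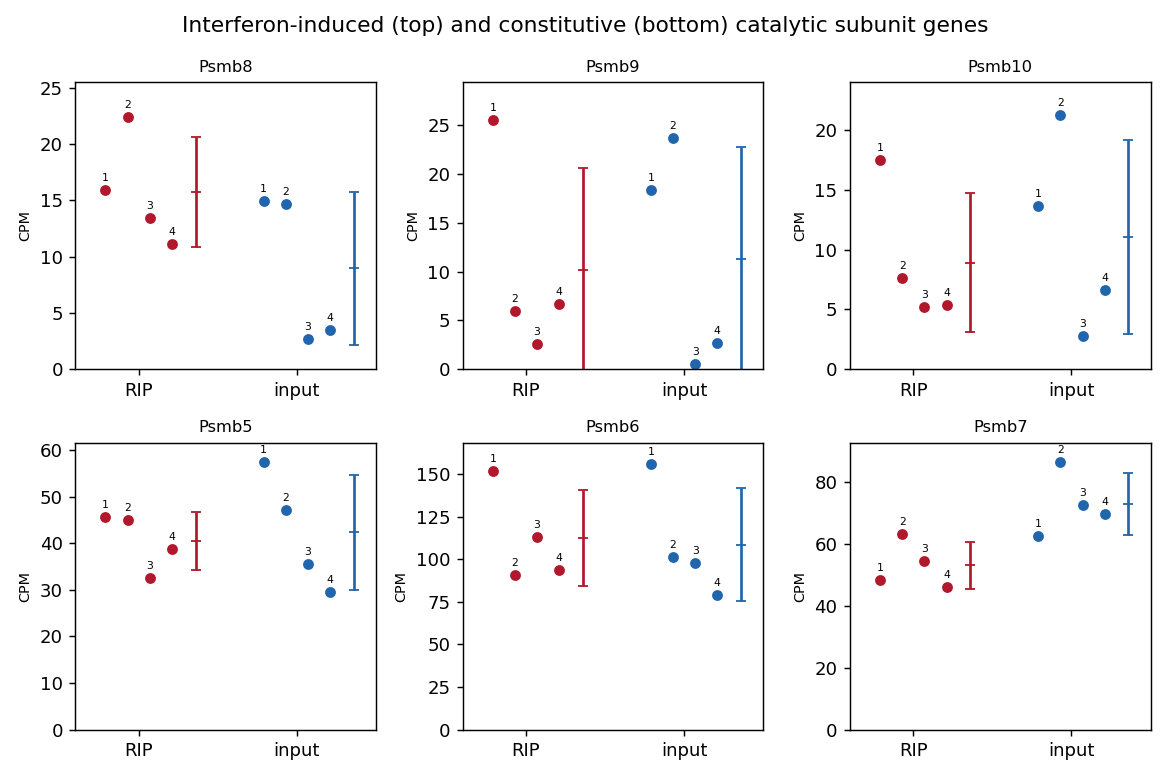
CPM (y axis, starting at 0) of the interferon-induced subunit genes Psmb8, Psmb9 and Psmb10 (top) above their constitutive counterparts Psmb5, Psmb6 and Psmb7 (bottom) in RIP (left, red) and input libraries (right, blue), numbered by replicate, with mean ± SD (lower ends below 0 are not drawn). Input 3 and input 4 are the lowest inputs for every gene shown except Psmb7, and every gene shown overlaps between the groups.

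Psmb9 shares its promoter region with Tap1, a subunit of the peptide transporter that feeds antigen presentation. Their full promoter windows in the RefSeq table, which run from 250 bases before a start to 50 after it, overlap by 275 bases on chromosome 17, from 34187306 to 34187580. Tap1, named after its values were seen, was at 82.6, 52.7, 38.9 and 35.0 CPM in RIP, against 52.1, 53.9, 21.4 and 36.1 CPM in input (log2 0.36 ± 0.35). RIP 1 was the highest library for both genes and input 3 the lowest. Among 10 interferon-induced antigen presentation genes the median log2 fold change was 0.36, with 8 above 0, 0 passing the edgeR test, and at an unadjusted p under 0.05 1 higher and 1 lower (background 3.15% and 4.28%). The lower one was B2m, the light chain of MHC class I, at 47.5, 62.6, 50.7 and 70.2 CPM in RIP, against 138, 163, 170 and 63.5 CPM in input (log2 -1.21 ± 0.30, edgeR adjusted p = 0.376). The others with the lowest p were Nlrc5, the activator of MHC class I genes (0.91 ± 0.42), and the myeloid transcription factor gene Irf8 (1.36 ± 0.76).

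The ATPase ring genes had their highest mean levels in input 3 and input 4. Of the 7 genes that the symbol rule takes in, 6 encode the ATPase ring, and the seventh, Psmc3ip, encodes a partner of the meiotic recombinases and no proteasome subunit. Psmc6 (chromosome 14, 45329823 to 45349074), a ring ATPase, was at 19.0, 23.8, 26.8 and 37.4 CPM in RIP, against 42.5, 33.8, 85.4 and 54.6 CPM in input. RIP 4 lay above input 2, and the other RIP libraries lay below all inputs. Its log2 fold change was -1.02 ± 0.34 (edgeR adjusted p = 0.622), the lowest unadjusted p of all members at 0.00854, with -0.84 within libraries 1 and 2 and -1.13 within libraries 3 and 4.

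Psmc2 (chromosome 5, 21785275 to 21803787), another ring ATPase, was at 41.1, 52.6, 40.0 and 44.8 CPM in RIP, against 58.9, 36.002, 101 and 63.0 CPM in input. Input 3 was far above the rest and input 2 was the lowest library of all (log2 -0.54 ± 0.30, edgeR adjusted p = 0.722). Psmc5, at 0.10 ± 0.31, was the ATPase gene with a value above 0. The median of the class was -0.29, and -0.19 without Psmc3ip. Mean log2 levels of the 6 ring genes were 5.36, 5.85, 5.79 and 5.88 in RIP, against 5.66, 5.59, 6.43 and 6.28 in input, so every RIP library lay below input 3 and input 4, and RIP 2, RIP 3 and RIP 4 lay above input 1 and input 2. The class median was 0.04 within libraries 1 and 2, -0.64 within libraries 3 and 4 and -0.04 without input 3. Input 3 and input 4 were also the deepest libraries, and whether depth had a part was not tested.

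Psmc3ip itself (chromosome 11, 101092141 to 101095435) was at 5.02, 4.28, 7.78 and 9.22 CPM in RIP, against 3.78, 3.65, 24.2 and 14.8 CPM in input. Input 3 and input 4 were above every RIP library, and input 1 and input 2 below (log2 -0.82 ± 0.61, edgeR adjusted p = 0.786). Its annotated span overlaps that of Mlx, so some of its reads are uncertain.

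Within the Psmd class, which holds lid subunits, subunits of the base (Psmd1, Psmd2 and Psmd4) and chaperones of base assembly (Psmd5, Psmd9 and Psmd10), values lay on both sides of 0. Psmd14 (chromosome 2, 61711694 to 61800376), the deubiquitinase of the lid, was at 13.9, 23.2, 21.1 and 26.004 CPM in RIP, against 32.9, 35.4, 56.3 and 24.7 CPM in input. RIP 4 lay just above input 4, and the other RIP libraries lay below all inputs (log2 -0.83 ± 0.34, edgeR adjusted p = 0.625). Within libraries 1 and 2 the value was -0.88, and within libraries 3 and 4 it was -0.78.

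Psmd1 (chromosome 1, 86064619 to 86139295), a large scaffold subunit, was at 72.3, 91.9, 71.5 and 88.1 CPM in RIP, against 86.6, 94.8, 151 and 124 CPM in input (log2 -0.50 ± 0.25, edgeR adjusted p = 0.689). Psmd2 (chromosome 16, 20651122 to 20663414), the other large scaffold, ran the other way at 249, 303, 283 and 284 CPM in RIP, against 178, 196, 196 and 285 CPM in input (log2 0.39 ± 0.23, 95% interval -0.09 to 0.87, edgeR adjusted p = 0.736). Input 4 stood among the RIP libraries for Psmd2, and the other inputs lay below all of them. Psmd4 (chromosome 3, 95032688 to 95042614), a receptor for ubiquitin chains, was at 208, 219, 245 and 231 CPM in RIP, against 182, 185, 252 and 255 CPM in input (log2 0.05 ± 0.22, 95% interval -0.42 to 0.52). Its RIP libraries lay between the lower and the higher inputs.

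Of the 14 Psmd genes, 4 lay above 0 and 10 below, with a median log2 fold change of -0.15. Psmd14 was the gene with an unadjusted p under 0.05, and it was lower (background 4.28%). The members not described individually lay between -0.44 for Psmd5 and 0.28 for Psmd3. The median was 0.05 without input 3, whose mean log2 level over the class (6.20) exceeded that of every other library. Proteasome genes as a whole took 0.206% to 0.291% of the counts in RIP and 0.243% to 0.367% in input, with input 3 the highest.

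Among activators, Psme1 and Psme2, the interferon-induced cap subunits, lie next to each other on chromosome 14 (55578494 to 55581527, and 55587440 to 55591101). Psme1 was at 69.1, 90.2, 70.0 and 67.2 CPM in RIP, against 49.4, 74.1, 84.8 and 90.0 CPM in input (log2 -0.01 ± 0.26, 95% interval -0.55 to 0.53). The sets of numbers went opposite ways for Psme1, with 0.36 within libraries 1 and 2 and -0.35 within libraries 3 and 4. Psme2 was at 38.6, 22.0, 21.1 and 25.4 CPM in RIP, against 28.9, 42.8, 23.2 and 24.5 CPM in input (log2 -0.16 ± 0.33). The groups overlapped for both, and input 3 and input 4 were the highest inputs for Psme1 and the lowest for Psme2.

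Psme3 (chromosome 11, 101316213 to 101323537), the nuclear cap, was at 84.3, 117, 115 and 92.3 CPM in RIP, against 116, 117, 114 and 103 CPM in input (log2 -0.14 ± 0.22, 95% interval -0.61 to 0.34). Psme4 (chromosome 11, 30771775 to 30881150), a cap linked to histone breakdown in spermatogenesis and DNA repair, was at 52.5, 65.5, 82.9 and 109 CPM in RIP, against 103, 97.6, 136 and 105 CPM in input. RIP 4 exceeded 3 of the inputs, and the other RIP libraries lay below all of them (log2 -0.51 ± 0.27, edgeR adjusted p = 0.694). Psmf1, which binds the core and is also known as an inhibitor, was the member of this class above 0 (0.24 ± 0.27).

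All 4 core assembly chaperone genes lay below 0, with a median of -0.48. Psmg4 (chromosome 13, 34162964 to 34178172) was at 7.61, 15.1, 16.8 and 18.4 CPM in RIP, against 36.3, 15.9, 40.8 and 24.0 CPM in input. RIP 3 and RIP 4 exceeded input 2 and otherwise RIP lay below input (log2 -1.01 ± 0.39, edgeR adjusted p = 0.622). Psmg3 (chromosome 5, 139823613 to 139826894) was at 9.23, 9.33, 15.9 and 4.56 CPM in RIP, against 23.9, 25.5, 9.06 and 5.79 CPM in input (log2 -0.71 ± 0.53, edgeR adjusted p = 0.786), with -1.41 within libraries 1 and 2 and 0.46 within libraries 3 and 4. The wider class of 9 genes had a median of -0.16, and -0.36 without RIP 1.

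Spread among libraries was wider in input than in RIP for 34 of the 49 genes (69.4%), where 72.5% of all genes tested had the wider spread in input. The median SD of log2 level over libraries was 0.30 in RIP and 0.42 in input for the members, and 0.43 in RIP and 0.61 in input for all genes. Input 3 was the highest library for 16 members and RIP 1 the lowest for 12. Across the 49 genes the fold change had a Spearman correlation of -0.41 with the log2 length of the annotated gene span and of 0.27 with mean log2 level, where over all genes these were -0.08 and 0.02; genes share libraries, and these are descriptions without a test.

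The element TGACNNNGC, the core of the site that NFE2L1 and its relatives bind, was searched on both strands in the 250 bases before each start in the RefSeq promoter table. The windows that hold it are shown as matches of sequence only, and whether NFE2L1 binds them was not tested. Promoters of 41 members were in the RefSeq table of GRCm38.p6, and 5 of them (12.2%) held the element, against 11.5% of all 27025 genes in the table. The share among members was thus close to that of all genes. Capitals mark the element in these windows, written along the strand of the gene.
Psmb5 (chr14:54618025-54618051, minus strand): gtgaagttgTGACGTCGCggcgttgcc
Psmb6 (chr11:70525339-70525356, plus strand): taaagagagTGACGGAGC
Psmd9 (chr5:123228150-123228176, plus strand): tctagccggTGACCCCGCccacttcca
Psmc6 (chr14:45329588-45329614, plus strand): cagccagtaGCTAAGTCAggcattgct
Psmd12 (chr11:107479278-107479298, plus strand): tctGCTGTGTCAcatttgccc
The start that the table gives for Psmb6 lies inside the annotated gene span, and so does its element. In Psmc6 and Psmd12 the element reads on the strand opposite to the gene. The fold changes of these genes were -0.06 for Psmb5, 0.05 for Psmb6, -0.35 for Psmd9, -1.02 for Psmc6 and -0.18 for Psmd12, so they did not share a direction. Nfe2l1 itself was at 298, 371, 357 and 379 CPM in RIP, against 326, 418, 274 and 402 CPM in input (log2 -0.01 ± 0.22). Over 6 genes of the control of proteasome gene transcription the median was 0.00, with 0 at an unadjusted p under 0.05, and the lowest p belonged to Ddi2, the protease that activates NFE2L1 (0.29 ± 0.31).

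Partners of the proteasome with other symbols had a median close to that of the subunits. Of 17 genes 7 lay above 0 and 10 below, with a median of -0.17, 0 passing the edgeR test. At an unadjusted p under 0.05 there were 0 higher and 2 lower (background 3.15% and 4.28%). These were the thioredoxin-like protein gene Txnl1 (-0.60 ± 0.26) and the ubiquitin shuttle gene Rad23b (-0.51 ± 0.23), followed by the proteasome-bound deubiquitinase gene Usp14 (-0.57 ± 0.31). The unfoldase Vcp and its cofactors had a median of -0.18 over 9 genes, led by Ubxn7 (-0.34 ± 0.26), Ufd1l (-0.33 ± 0.28) and Ubxn4 (-0.47 ± 0.39), with 0 at an unadjusted p under 0.05.

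A pair of other large complexes built from fixed sets of subunits gave medians close to that of the proteasome genes. The COP9 signalosome, a relative of the lid that removes the ubiquitin-like protein NEDD8 from cullins, had a median of -0.24 over 9 genes, with 4 above 0 and 5 below. None passed, and at an unadjusted p under 0.05 there were 0 higher and 2 lower (background 3.15% and 4.28%). Cops2 was at 6.13, 18.2, 20.0 and 24.1 CPM in RIP, against 43.9, 24.0, 98.8 and 29.6 CPM in input (log2 -1.52 ± 0.47, edgeR adjusted p = 0.610). Cops5, its catalytic subunit and a relative of Psmd14, was at -0.70 ± 0.32, and Cops3 at -0.50 ± 0.25. For both Cops5 and Cops3 all RIP libraries lay below all inputs (background 2.52%). Gps1, named after its values were seen, was at 157, 148, 155 and 139 CPM in RIP, against 124, 126, 83.0 and 114 CPM in input (log2 0.42 ± 0.22, edgeR adjusted p = 0.702), with all RIP libraries above all inputs (background 2.77%). The CCT chaperonin, which folds actin and tubulin, had a median of -0.25 over 8 genes, with Tcp1 at -0.46 ± 0.25, Cct2 at -0.43 ± 0.26, Cct8 at -0.38 ± 0.24 and 0 at an unadjusted p under 0.05. No test of a difference between these complexes and the proteasome was made.

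**Figure D4:**
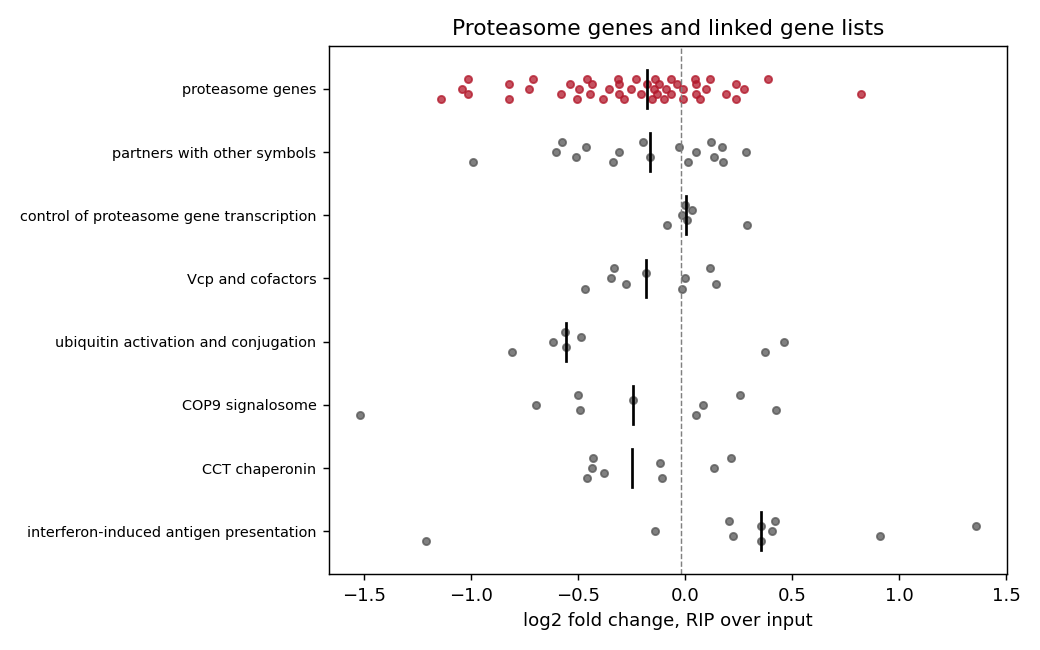
Log2 fold change of RIP over input (x axis) for the 49 proteasome genes (red) and for each tested gene of 7 linked lists (grey); black bars are list medians and the dashed line is the median of all genes tested. Proteasome genes have a median of -0.18, COP9 signalosome and CCT chaperonin genes lie at similar medians of -0.24 and -0.25, and the interferon-induced antigen presentation genes have a median of 0.36.

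Counts of some members are less certain than others. The annotated spans of 13 of the 49 genes overlap at least 1 other annotated gene, among them Psmd10 with Atg4a and Psmf1 with Tmem74b. Psma3, Psma6, Psmb5, Psmb7, Psmc3ip, Psmd1, Psme1 and Psme4 are also among the 13. Whether counting used strand is not known, so reads in the shared stretches cannot be assigned. Without transcript or protein lengths, levels were not compared between genes.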

How the data were processed

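The authors deposited 1 table, whose values are expected counts per gene (an estimated count need not be whole), for the 8 libraries. The genome build was mm10, as the submitters' processing notes name it. The labels' protocols name a Magna RIP kit and a stranded total RNA kit in its Pico input version. For aligner, counter and annotation, nothing is given in the sources used here. Values were rounded to whole numbers, at most 428 a library being not whole at a tolerance of 1e-09, and the test written for whole counts was kept. Fits ran on all genes in R 4.3.3 with edgeR 4.0.16: TMM factors, filterByExpr (minimum count 10, minimum total 15), robust quasi-likelihood F test, Benjamini-Hochberg threshold 0.05. Each SE is |log2 fold change| over the root of the F statistic, and 95% intervals use the fit's t quantile. CPM are TMM-scaled; class means use log2(CPM + 0.5).

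Alternatives used DESeq2 1.42.0, limma 3.58.1, other scalings and filters, single libraries left out and the replicate number as a block. Deviations of same-numbered RIP and input libraries correlated at 0.213, 0.116, 0.206 and 0.137, so by a rule of over 0.1 in every pair the numbers were taken to pair the libraries. The input most like RIP 4 was input 3, not input 4, while RIP 1, 2 and 3 were closest to their own numbers. The pairing comes from the data and not from the labels, and the rule cannot tell it from the grouping of numbers 1 and 2 apart from 3 and 4. Unless a block is named, the values given are from the fit without one. With the replicate number as a block edgeR called 13 genes higher and 42 lower over all genes, against 0 and 6 without it. Fits within libraries 1 and 2, within 3 and 4, and with that grouping as a block were added after the data were seen.

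Members and lists were chosen with earlier results of these data known. Values per library are given for members past the threshold, the 3 with the lowest p in each class, a fixed set of catalytic, tissue-restricted, activator and ubiquitin-handling subunits and Psmc3ip, and for the 3 with the lowest p of each linked list their fold changes or levels. A planned level per coding length was not computed. The fit was tested on simulated data. Coordinates and promoter windows are RefSeq's on GRCm38.p6, 1-based. Some results, among them those of 1 linked list, are not reported here.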

Additional observations from a re-analysis of the deposited data

Results flagged for a closer look

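For 8 of 98 groups of 4 libraries, 1 library lay far from the others relative to the group's range; chance flags about 1 in 20 groups, or 4.90 of 98. Psmc1 was at 48.1 CPM in RIP 1, where the other RIP libraries held 68.9 to 71.6 CPM, and Psmc4 was at 41.9 CPM in RIP 1, where the others held 60.2 to 63.7 CPM. In RIP 2, Psmd11 was at 49.1 CPM beside 55.3 to 56.3 CPM, and Psme1 at 90.2 CPM beside 67.2 to 70.0 CPM. Psma3 was at 53.6 CPM in RIP 4 beside 37.2 to 39.9 CPM in the other RIP libraries. Among inputs, Psma4 was at 82.6 CPM in input 3 beside 25.7 to 35.0 CPM, Psmd2 at 285 CPM in input 4 beside 178 to 196 CPM, and Psma8 at 6.96 CPM in input 2 beside 2.49 to 3.21 CPM.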

How the results depend on the processing

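The counts of 0 proteasome genes higher and 0 lower were 0 in each of the 20 other fits run and without Psmc3ip. The replicate block changed no call among the members, with a median of -0.15 over the 49 genes. The lowest adjusted p of a member in these fits was 0.0976, for Psmc6 with the number grouping as a block in edgeR. Leaving out 1 library at a time, medians of the log2 fold change ran between -0.27 and -0.13 for all 49 genes, -0.36 and -0.01 for the core, -0.69 and -0.23 for the alpha ring, -0.20 and 0.14 for the beta ring, -0.51 and -0.04 for the ATPases, -0.23 and 0.047 for the lid (the highest without input 3), and -0.36 and -0.13 for the activators. Of these, the medians of all 49 genes without input 4 (-0.27) and of the alpha ring without input 3 (-0.23) moved by more than the spread between replicates. So did those of the lid without input 3 (0.047) and of the activators without RIP 1 (-0.36). That spread is the pooled SD, within RIP and within input, of a class's mean log2 level. It was 0.08 for all 49 genes, 0.26 for the core, 0.22 for the alpha ring and 0.48 for the beta ring. For the ATPases it was 0.43, for the lid 0.17 and for the activators 0.12. In the other fits, medians that moved by more than this spread were those of all 49 genes within libraries 1 and 2 (-0.10), of the alpha ring within libraries 1 and 2 (-0.17) and of the core within libraries 3 and 4 (0.13). The beta ring (-0.21 within libraries 1 and 2, 0.34 within 3 and 4) and the ATPases (0.04 and -0.64) also moved far. They are not listed because their spread is wide, and it takes in the difference between those sets of inputs. The cause was not tested. Other scalings, filters and tools left every class median within that spread. Of 460 pairs of a named gene and an alternative fit, 424 kept the direction and 36 did not, among Psma8, Psmb5, Psmb6, Psmb9, Psmb10, Psmb11, Psmc3ip, Psmd4, Psme1, Psme2 and Psmg3. Depth limits Psma8 most, with as few as 6 counts in a library.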

Other observations

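Genes that place ubiquitin on substrates, upstream of the proteasome, had a median log2 fold change of -0.55 over 7 genes, with 0 passing the edgeR test and, at an unadjusted p under 0.05, 0 higher and 3 lower (3.15% and 4.28% of all genes tested). These were the conjugating enzyme genes Ube2d1, Ube2d3 and Ube2l3, and for each of them all RIP libraries lay below all input libraries. Ube2d3 was at 129, 169, 199 and 183 CPM in RIP, against 244, 254, 284 and 223 CPM in input (log2 -0.56 ± 0.22, edgeR adjusted p = 0.622). Ube2d1 was at 16.6, 18.9, 16.1 and 14.6 CPM in RIP, against 40.6, 29.5, 25.3 and 20.8 CPM in input (log2 -0.81 ± 0.33, edgeR adjusted p = 0.622), and Ube2l3 had a log2 fold change of -0.55 ± 0.25. The activating enzyme gene Uba1, named after its values were seen, lay on the other side with 488, 563, 502 and 459 CPM in RIP, against 427, 446, 241 and 349 CPM in input (log2 0.46 ± 0.24, edgeR adjusted p = 0.693), all RIP libraries being above all inputs. Over all genes tested, 2.52% lay wholly below and 2.77% wholly above. Ube2d2a was not analysed here.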
